A study of Homo sapiens with 6 samples.

Results

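Long intergenic noncoding RNAs (LINC genes) were followed in BE-(2)-C cells, a human neuroblastoma line, after an siRNA against ELF4 or a control siRNA. The set holds the 98 of 26906 table rows named LINC plus a number alone whose mean normalised read count over all 6 libraries was at least 20. They were chosen by that mean, which does not use the difference between the groups. The other 119 of the 217 LINC rows lay under a mean of 20. Both groups were the same unsorted cell line, taken 48 hours after treatment with either siRNA, with 3 libraries of polyA-selected RNA per group. ELF4 encodes an ETS-family transcription factor, named in the title of the series as a miR-124 target that promotes an undifferentiated state and proliferation in neuroblastoma. The labels name a single cell line and do not say whether the siRNA was a pool.

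LINC genes lie mostly between protein-coding genes and are transcribed by RNA polymerase II, and many of their transcripts are spliced and polyadenylated. Some act as RNA in the nucleus or the cytoplasm, some are precursors from which microRNAs are cut, and some turned out to carry a short open reading frame for a small protein. LINC names are provisional, and a name is replaced once a function, a neighbour or a protein is assigned to the locus. In the current RefSeq annotation, 70 of the 98 names are still in use, 28 are older names, 11 belong to genes now listed as protein-coding and 87 to genes listed as noncoding.

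ELF4 itself had normalised read counts of 42.4, 38.8 and 46.8 in the control libraries and 5.51, 5.61 and 3.10 in the ELF4 siRNA libraries. The groups did not overlap, and the log2 fold change was -2.96 (SE 0.25, adjusted p = 5.38e-07, limma). The recovered reads numbered 23148635 to 38097986 per library, of which the LINC set held 0.103% to 0.109%. The 11 adrenergic neuroblastoma markers were all detected, with a summed level of 214791 to 229596 in control and 248283 to 268417 in ELF4 siRNA libraries. Blood markers summed to 46.8 to 53.7 in control and 31.9 to 48.3 in ELF4 siRNA libraries, with CD3E and HBB absent from the table. Of the 2 tested blood markers 1 rose and 1 fell, so the sum hides opposite changes. The 3 epithelial markers summed to 105 to 125 in control and 129 to 158 in ELF4 siRNA libraries. The fibroblast markers summed to 3749 to 3835 and 3588 to 3787, but all 4 tested members changed. DCN, COL1A1 and LUM rose by 0.83, 0.48 and 0.31 on the log2 scale, and PDGFRB fell by 1.19. Of the Schwann cell markers S100B rose by 0.51 (adjusted p = 0.00323), and SOX10 had group means of 2.01 and 4.95. The part of other cells in the results was not tested, and in bulk RNA fewer cells of a type and less RNA per cell cannot be told apart.

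All 98 LINC rows passed the filter on low values. After ELF4 siRNA, 37 rose and 8 fell at an adjusted p below 0.05, and 53 did not pass. The 37 are 37.8% of the set, where 20.7% of all 20339 tested rows rose, and the 8 are 8.16%, where 24.4% of all tested rows fell. The median log2 fold change was 0.20 with quartiles of -0.01 and 0.46, beside a median of -0.00 over all tested rows. The 3 ELF4 siRNA libraries all lay above the 3 control libraries for 41 LINC rows, against 25.4% of all tested rows, and all below them for 10, against 28.2%. A called rise of at least 1 on the log2 scale was measured for 7 LINC rows and a called fall of that size for 0. Of all 20339 tested rows, 333 had a called rise of that size and 241 a called fall. Rises of that size were thus a smaller share of all tested rows than of the LINC set. Of the 45 rows called, 21 changed by less than 0.5.

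**Figure D1:**
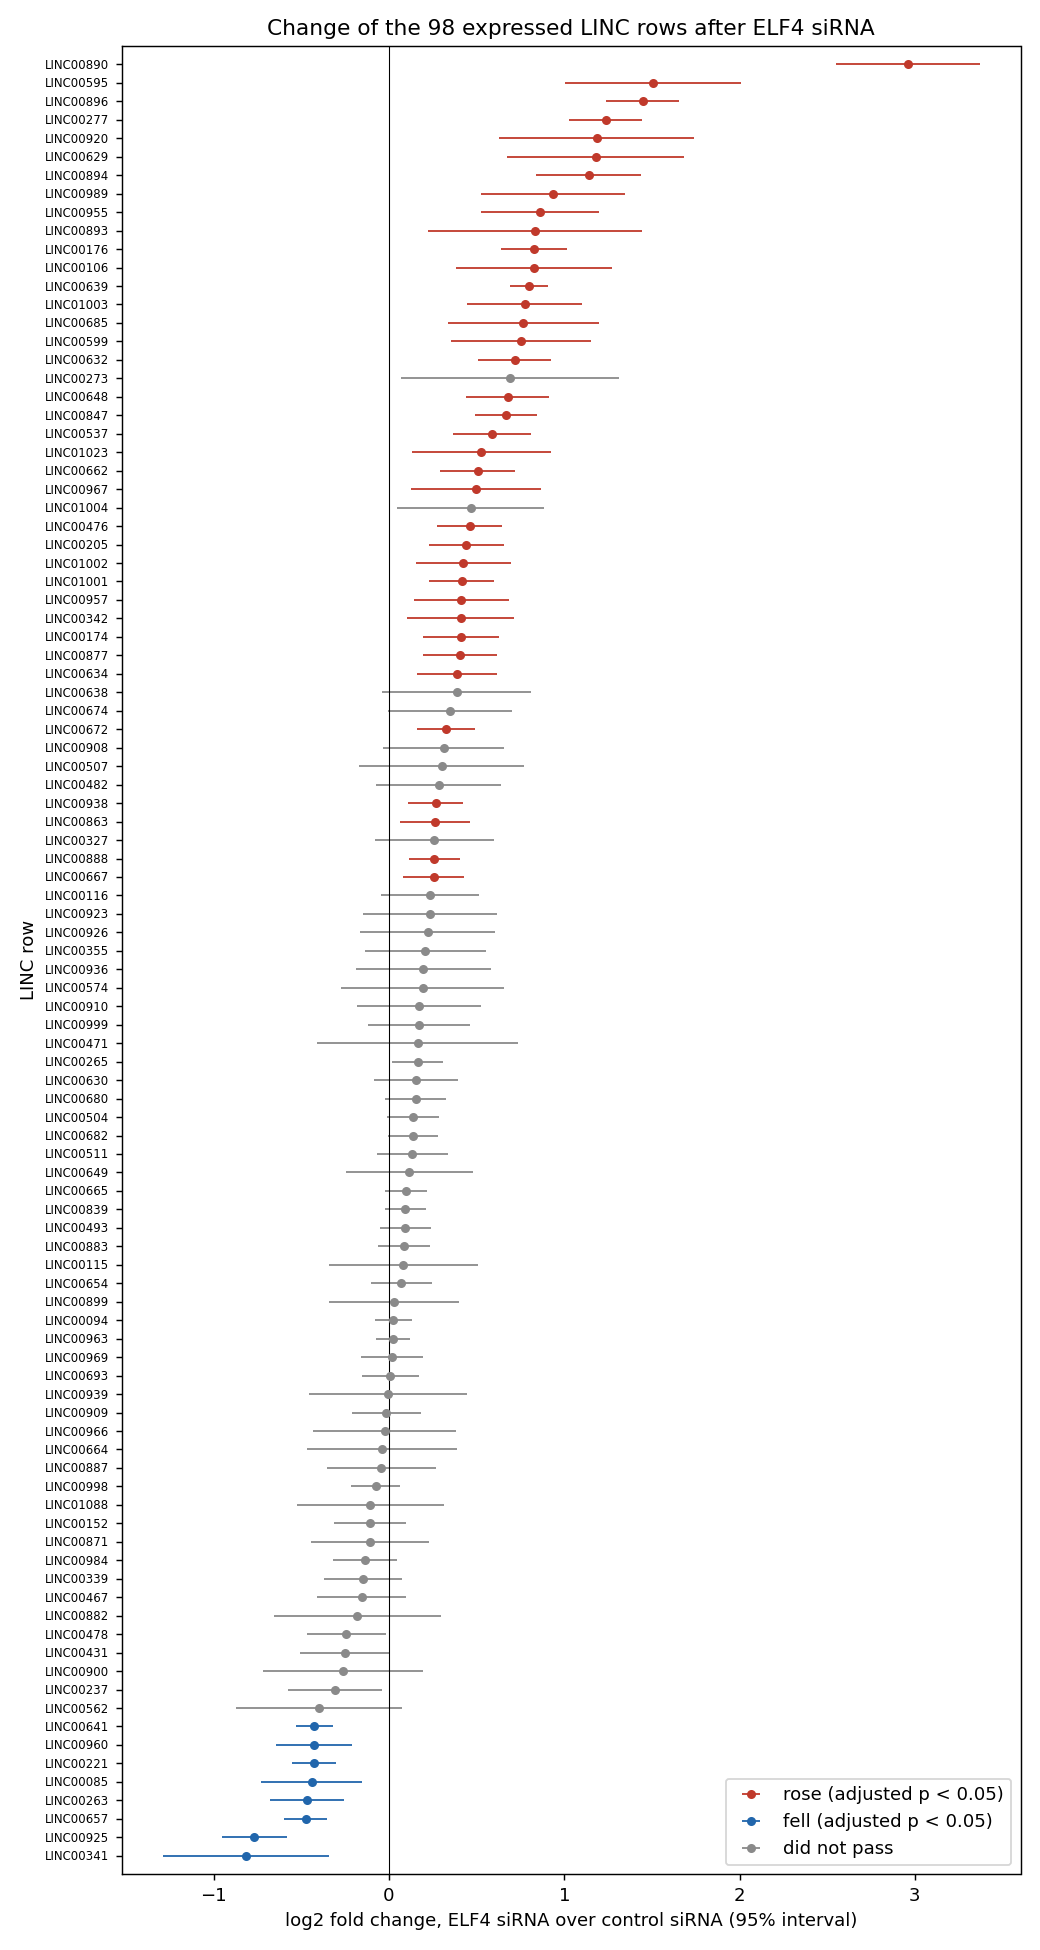
Log2 fold change after ELF4 siRNA, relative to control siRNA, for each of the 98 LINC rows (points) with its 95% interval from limma (bars, 3 libraries per group), sorted by change. The 37 rows that rose (red) run up to 2.96 for LINC00890, the 8 that fell (blue) down to -0.82 for LINC00341, and the 53 in grey did not pass.

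Several LINC loci are microRNA host genes, from whose transcripts a microRNA hairpin is cut. A lookup in the RefSeq annotation found 3 of the 98 rows to hold the hairpin of a listed microRNA on their own strand. LINC00969, now MIR570HG, had no strand in that lookup and could not be matched. It did not pass (log2 fold change 0.02, adjusted p = 0.888) and was named after its values were seen. LINC00925, now MIR9-3HG, holds miR-9, a microRNA of neural progenitors and neurons, LINC00478, now MIR99AHG, holds the miR-99a and let-7c cluster, and LINC00085, now part of SPACA6, holds the miR-99b, let-7e and miR-125a cluster. The 5p arms are shown because their shared seeds tie the last 2 hosts together. Each sequence is RefSeq's mature form (GRCh38.p14, 5′ to 3′), with the seed, bases 2 to 8, in capitals.
LINC00925, miR-9-5p: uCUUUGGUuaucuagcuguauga
LINC00478, miR-99a-5p: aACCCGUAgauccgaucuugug
LINC00085, miR-99b-5p: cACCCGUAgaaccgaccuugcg
LINC00478, let-7c-5p: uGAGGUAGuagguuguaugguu
LINC00085, let-7e-5p: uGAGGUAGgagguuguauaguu
LINC00085, miR-125a-5p: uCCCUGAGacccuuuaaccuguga

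The 6 arms carry 4 different seeds. The miR-99 arms share ACCCGUA and the let-7 arms share GAGGUAG, so the LINC00478 and LINC00085 transcripts each hold 1 microRNA of both seed groups. The mature microRNAs were not measured here, since the libraries hold polyA RNA.

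The miR-9 host LINC00925 was lower after ELF4 siRNA. Its level was 584, 736 and 600 in the control libraries and 403, 349 and 369 in the ELF4 siRNA libraries. The groups were well apart, and the log2 fold change was -0.77 (SE 0.09, adjusted p = 6.55e-06). LINC00085 stood at 75.4, 84.5 and 92.8 in control and 71.6, 59.5 and 54.9 in ELF4 siRNA libraries, a log2 fold change of -0.44 (adjusted p = 0.0158). Its groups were narrowly separate. The call was lost without control replicate 3 (adjusted p = 0.0769), without ELF4 siRNA replicate 3 (adjusted p = 0.0606) and in DESeq2 (adjusted p = 0.0830). A second row, which joins LINC00085 with MIR125A and another gene name, held 74.4, 70.8 and 62.3 in control and 39.7, 37.0 and 40.4 in ELF4 siRNA libraries, a log2 fold change of -0.81 (adjusted p = 0.000225). LINC00478 had values of 210, 178 and 209 in control and 189, 168 and 147 in ELF4 siRNA libraries. These overlapped, and the log2 fold change of -0.24 (95% interval -0.47 to -0.02) did not pass (adjusted p = 0.0721). It did pass without control replicate 2 (adjusted p = 0.0275), without ELF4 siRNA replicate 1 (adjusted p = 0.0272) and with a replicate block (adjusted p = 0.0441).

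Host genes of miR-124 also appear in the table under LINC names. LINC00599, now MIR124-1HG, had 28.3, 36.6 and 37.5 in control and 47.4, 53.9 and 75.6 in ELF4 siRNA libraries. It rose in all 3 libraries above every control, by 0.75 on the log2 scale (SE 0.19, adjusted p = 0.00426). LINC00966, now MIR124-2HG, had 66.9, 62.8 and 77.9 in control and 79.3, 84.2 and 46.6 in ELF4 siRNA libraries. Here the ELF4 siRNA libraries lay on both sides of the controls, and the log2 fold change was -0.02 (95% interval -0.43 to 0.38, adjusted p = 0.932). The difference between the 2 host genes was not tested. LINC00966 falls outside the rule for named genes and was chosen after its values were seen.

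The largest rise belonged to LINC00890, a locus on the X chromosome now listed as SERTM2, a small transmembrane protein gene whose nearest coding gene is DCX. Its level was 28.3, 17.1 and 31.2 in control and 182, 183 and 238 in ELF4 siRNA libraries. Every ELF4 siRNA library exceeded every control several times over, and the mean was 7.87-fold higher (log2 fold change 2.96, SE 0.19, adjusted p = 3.89e-08). DCX, which encodes the microtubule-binding protein doublecortin of migrating neurons, rose by 1.43 (adjusted p = 5.89e-11). Its level went from 2405 to 2475 in the control libraries to 6534 to 6646 in the ELF4 siRNA libraries.

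LINC00595 and LINC00896, noncoding loci whose nearest coding genes are RPS24 and RTN4R, followed in size. LINC00595 had 28.3, 17.1 and 15.6 in control and 76.0, 53.9 and 46.6 in ELF4 siRNA libraries, a log2 fold change of 1.50 (SE 0.23, adjusted p = 0.000122). LINC00896 had 96.1, 89.1 and 78.6 in control and 236, 254 and 233 in ELF4 siRNA libraries, a log2 fold change of 1.45 (SE 0.10, adjusted p = 6.01e-08). In both the groups were far apart, and the spread within a group was narrower for LINC00896. LINC00277, now EWSAT1, the Ewing sarcoma associated transcript, had 130, 102 and 112 in control and 271, 267 and 271 in ELF4 siRNA libraries. Its 3 ELF4 siRNA values were nearly equal and all above the controls (log2 fold change 1.24, adjusted p = 2.24e-07).

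LINC00920 and LINC00629 rose from few reads. Their control means of 16.0 and 12.1 lay under 20, so both entered the set through their ELF4 siRNA values. These rises are therefore partly set by the choice. LINC00920 had 11.3, 14.9 and 22.0 in control and 26.4, 39.3 and 46.6 in ELF4 siRNA libraries (log2 fold change 1.18, SE 0.26, adjusted p = 0.00190). LINC00629, whose nearest coding gene is the placental gene PLAC1, had 14.1, 13.7 and 8.50 in control and 25.3, 28.1 and 31.05 in ELF4 siRNA libraries (log2 fold change 1.18, SE 0.23, adjusted p = 0.000925). Neither pair of groups overlapped. LINC00894, now EOLA2-DT, is the divergent transcript of EOLA2 and had 33.9, 34.3 and 41.8 in control and 77.1, 89.8 and 78.7 in ELF4 siRNA libraries. Its groups were apart (log2 fold change 1.14, adjusted p = 1.46e-05), and 27.0% of its 31-mers also occur in transcripts of another gene.

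The remaining 5 of the 12 largest rises had log2 fold changes of 0.83 to 0.94. LINC00176, now C20orf204, was the most abundant of them, with 266, 345 and 296 in control and 505, 562 and 538 in ELF4 siRNA libraries (log2 fold change 0.83, adjusted p = 3.63e-06). LINC00989, LINC00955 and LINC00106 also had groups that did not overlap, with adjusted p of 0.00116, 0.000472 and 0.00474. With control means of 14.5, 15.6 and 15.1, LINC00989, LINC00106 and LINC00893 reached the minimum mean of 20 through their ELF4 siRNA values. The rises of these rows are therefore partly set by the choice. LINC00893, now EOLA1-DT, the counterpart of LINC00894 beside the related gene EOLA1, had 9.42, 16.0 and 19.8 in control and 34.1, 29.2 and 18.6 in ELF4 siRNA libraries. Its groups overlapped, the call (log2 fold change 0.83, adjusted p = 0.0280) rests on few reads, and 49.4% of its 31-mers occur in transcripts of another gene. The LINC00893 call was lost without control replicate 1 (adjusted p = 0.129), without ELF4 siRNA replicate 1 (adjusted p = 0.125) and without ELF4 siRNA replicate 2 (adjusted p = 0.0880). It was also lost without the trend (adjusted p = 0.0919) and in DESeq2 (adjusted p = 0.0799).

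**Figure D2:**
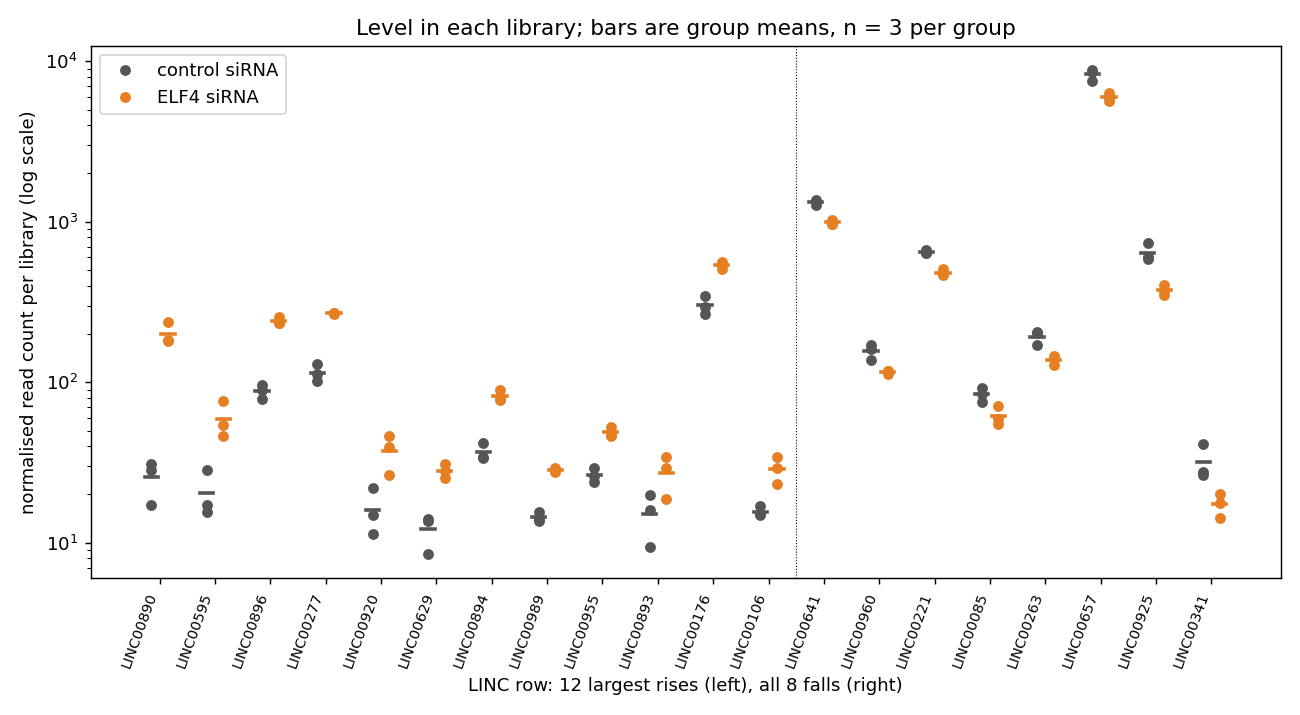
Normalised read count in each library (points, log axis) of the 12 largest rises and all 8 falls among the LINC rows, with control siRNA in grey, ELF4 siRNA in orange and group means as bars. LINC00893 is the only row among these 20 whose groups overlap. LINC00890 moves from 17.1 to 31.2 in control up to 182 to 238 after ELF4 siRNA.

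The most abundant LINC RNA was LINC00657, now NORAD, a cytoplasmic RNA known for binding Pumilio proteins and for its link to chromosome stability. It held 25.4% of the summed level of the 98 rows. Its level was 8528, 7510 and 8809 in control and 5890, 5659 and 6301 in ELF4 siRNA libraries. All ELF4 siRNA libraries lay below all controls, with a log2 fold change of -0.48 (SE 0.06, adjusted p = 1.27e-05). Of the 31-mers in its transcripts 56.4% also occur in transcripts of another gene, so its level depends on how such reads were assigned.

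The fall of LINC00657 offsets the rises in the sum. The 98 rows together gave 27184 to 28684 in control and 27427 to 28550 in ELF4 siRNA libraries, which overlap. Without LINC00657 the sum was 19623 to 19875 in control and 21768 to 22250 in ELF4 siRNA libraries, with every ELF4 siRNA library higher.

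The other falls included 2 other abundant LINC RNAs. LINC00641 had 1354, 1277 and 1361 in control and 975, 972 and 1025 in ELF4 siRNA libraries, and LINC00221 had 643, 663 and 641 in control and 506, 466 and 475 in ELF4 siRNA libraries. Neither pair of groups overlapped, and both log2 fold changes were -0.43 (adjusted p = 9.61e-06 and 3.58e-05). LINC00263, now OLMALINC, an RNA named for oligodendrocyte maturation whose nearest coding gene is the lipid desaturase gene SCD, had 170, 202 and 205 in control and 145, 141 and 128 in ELF4 siRNA libraries. Its groups were apart (log2 fold change -0.47, adjusted p = 0.00136), while SCD differed by 0.01 (adjusted p = 0.904). LINC00960 had a log2 fold change of -0.43 (adjusted p = 0.00311).

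LINC00341 had the lowest fold change of the set. Its values were 26.4, 41.1 and 27.6 in control and 14.3, 20.2 and 17.6 in ELF4 siRNA libraries, a log2 fold change of -0.82 (SE 0.22, adjusted p = 0.00771), and the groups did not overlap. DESeq2 gave an adjusted p of 0.0535. LINC00341 had an ELF4 siRNA mean of 17.4 and reached the minimum mean of 20 through its control values. Its fall is therefore partly set by the choice. The name now belongs to SYNE3, which encodes a nuclear envelope protein of the nesprin family and has a row of its own in the table. That row stood at 82.0, 29.7 and 59.5 in control and 43.0, 24.7 and 27.9 in ELF4 siRNA libraries, overlapping, at -0.75 on the log2 scale (adjusted p = 0.0549).

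Among the 10 rows with the highest means, LINC00639 was the one that rose. It had 799, 841 and 803 in control and 1359, 1459 and 1439 in ELF4 siRNA libraries. Its groups were tight and separate (log2 fold change 0.80, SE 0.05, adjusted p = 3.25e-08). LINC00657, LINC00641 and LINC00221 fell, and the other 6 did not pass. Of all tested rows with a mean of at least 200, 24.9% rose and 34.5% fell. LINC00963 had 1320, 1332 and 1278 in control and 1323, 1337 and 1336 in ELF4 siRNA libraries, a log2 fold change of 0.02 with a 95% interval of -0.07 to 0.12. LINC00665 was measured at 0.09 (interval -0.03 to 0.21), LINC00094 at 0.03 (interval -0.08 to 0.13) and LINC00839 at 0.09 (interval -0.02 to 0.21). LINC00504 was at 0.14 (adjusted p = 0.122) and passed without control replicate 2 (adjusted p = 0.0471).

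Levels between these RNAs are compared per kilobase of exon in GENCODE 29, which was possible for 90 rows. LINC00657 led with a mean normalised read count of 1333 per kilobase, followed by LINC00998 with 561, LINC00493 with 420, LINC00839 with 334 and LINC00639 with 230. LINC00998 and LINC00493, both short genes, rank 6 and 13 by the read count that is not divided by length. The summed read count is concentrated, as the 10 highest rows held 57.5% of it, and the median mean was 103 with a range of 20.1 to 7116.

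**Figure D3:**
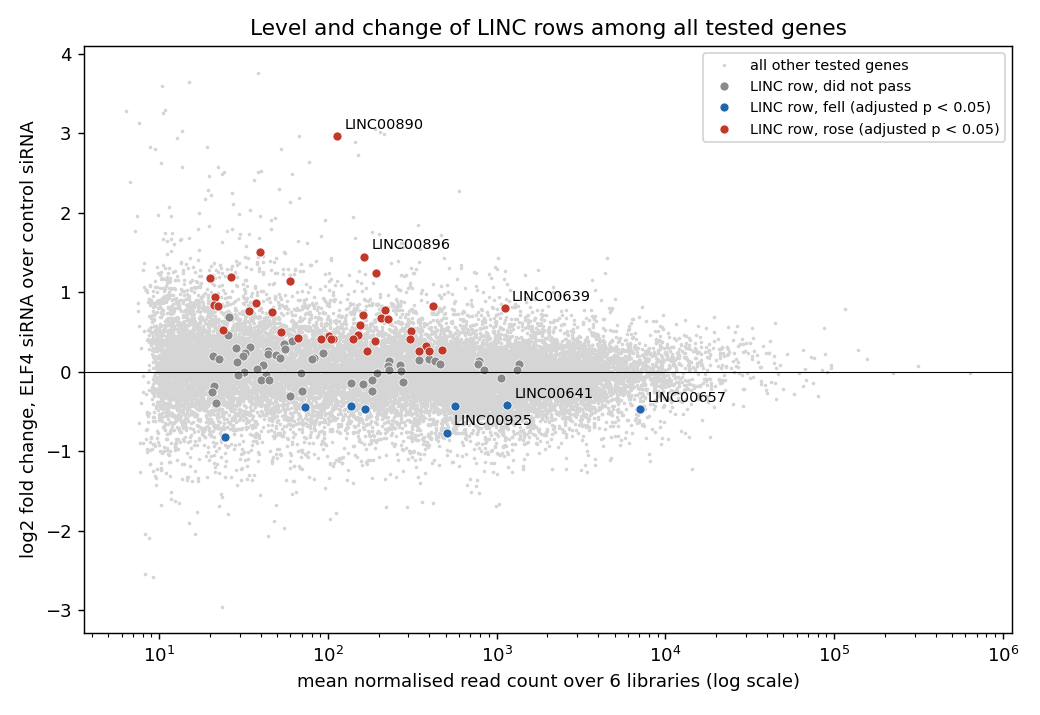
Mean normalised read count over the 6 libraries (log axis) against the log2 fold change after ELF4 siRNA for the other tested rows (light grey) and the 98 LINC rows (large points, coloured by call). LINC00890 is the highest of the LINC points at 2.96, and the 31 LINC rows with a mean of at least 200 all lie between -1 and 1.

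Of the 11 rows whose genes are now listed as protein-coding, 4 rose (36.4%), 2 fell (18.2%) and 5 did not pass. Of all tested rows 20.7% rose and 24.4% fell. The risers were LINC00890 and LINC00176 (above), LINC00634 and LINC00672. LINC00634, now SMIM45, had 166, 176 and 152 in control and 254, 200 and 197 in ELF4 siRNA libraries (log2 fold change 0.39, adjusted p = 0.00793). LINC00672, now LASP1NB, the neighbour of LASP1, had 350, 343 and 316 in control and 420, 461 and 386 in ELF4 siRNA libraries (log2 fold change 0.33, adjusted p = 0.00317). In both rows the ELF4 siRNA libraries were all above the controls.

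The other 5, LINC00094 (above) among them, did not pass. LINC00998, now SMIM30, whose microprotein sits in the endoplasmic reticulum membrane, was at -0.08 (95% interval -0.21 to 0.06). LINC00493, now SMIM26, a mitochondrial microprotein gene, was at 0.09 (interval -0.05 to 0.24). LINC00116, now MTLN, which encodes mitoregulin of the inner mitochondrial membrane, had 97.0, 76.5 and 85.0 in control and 118, 98.8 and 89.0 in ELF4 siRNA libraries. These overlapped, with a log2 fold change of 0.24 (interval -0.04 to 0.51, adjusted p = 0.158). LINC00984, now INAFM2, was at -0.14 (interval -0.32 to 0.05). The 87 rows still listed as noncoding had 33 rises (37.9%) and 6 falls (6.90%), against 20.7% and 24.4% of all tested rows.

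A list of 22 LINC names with roles described in cancer, neurons or as microproteins had 12 members among the 98 rows, of which 3 rose, 1 fell and 8 did not pass. The 3 rises are 25% of the 12, near the 20.7% of all tested rows. The list was written from general knowledge, with earlier results of these libraries known. LINC00632, the locus from which the circular RNA CDR1as is made in neurons, rose. It had 109, 136 and 120 in control and 198, 194 and 208 in ELF4 siRNA libraries, groups well apart (log2 fold change 0.72, SE 0.10, adjusted p = 3.59e-05). The circular form itself was not measured. LINC00662 had 273, 218 and 275 in control and 336, 345 and 407 in ELF4 siRNA libraries, also apart (log2 fold change 0.51, adjusted p = 0.000839). The third riser was LINC00599 and the single fall LINC00657. LINC00467, described in neuroblastoma as a target of MYCN, had 179, 169 and 163 in control and 169, 123 and 171 in ELF4 siRNA libraries. The groups overlapped, at -0.16 (95% interval -0.41 to 0.10). LINC00152, now CYTOR, a cytoplasmic RNA described in many tumours, was at -0.11 (interval -0.31 to 0.10), and LINC00511 at 0.13 (interval -0.07 to 0.34).

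The rises were found at all levels. Of the 33 LINC rows with a mean of 20 to 50, 10 rose and 1 fell, where 14.4% of all tested rows of that level rose and 9.04% fell. Of the 34 rows with a mean of 50 to 200, 16 rose and 3 fell, against 21.8% and 19.3% of tested rows. Of the 31 rows with a mean of at least 200, 11 rose and 4 fell, against 24.9% and 34.5%. Precision differed with level, as the median SE was 0.20 for LINC rows with a mean under 50 and 0.07 for those with at least 200. Of 8 rows with a control mean under 20, which entered the set through their ELF4 siRNA values, 6 rose. They were LINC00920, LINC00629, LINC00989, LINC00893, LINC00106 and LINC01023, and their rises are partly set by the choice. LINC01023 was named after its values were seen. Another 4 rows had an ELF4 siRNA mean under 20 and entered through their control values. LINC00341, which fell, was among them, so its fall is likewise partly set by the choice. With the minimum placed on the control mean, 31 rows rose and 8 fell.

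**Figure D4:**
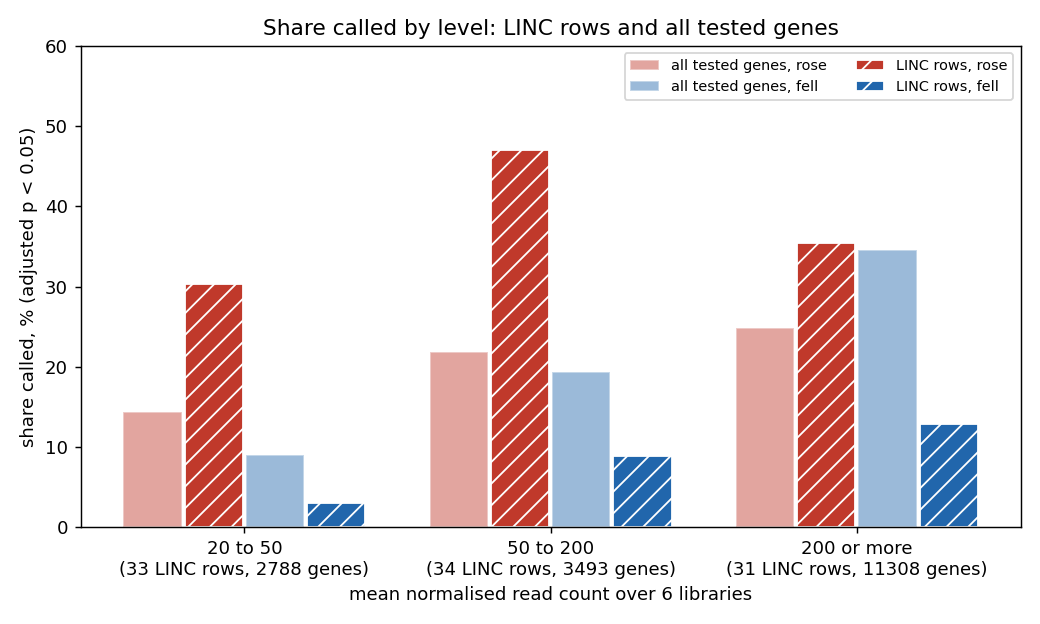
Share of rows that rose (red) or fell (blue) at an adjusted p below 0.05, in %, by mean normalised read count, for all tested rows (pale) and LINC rows (hatched). In the middle class 16 of 34 LINC rows rose, against 21.8% of all tested rows of that level. In the top class 4 of 31 fell, against 34.5%.

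The rows at the edge of the set were LINC00629, LINC00900 and LINC00574 just inside, with means of 20.1, 20.6 and 21.0, and LINC00623, LINC00565 and LINC00937 just outside, with means of 19.2, 17.7 and 17.6. The log2 fold changes were 1.18, -0.26 and 0.19 inside and 0.10, 0.93 and 1.12 outside.

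For 65 of the 98 rows the nearest protein-coding gene in RefSeq was also tested. Nearest here means the closest at any distance, which can be far. Of the 25 LINC rows with such a pair that rose, the neighbour rose in 10, fell in 5 and did not pass in 10, and of the 6 that fell, the neighbour fell in 2, rose in 1 and did not pass in 3. Over all 65 pairs 15 neighbours rose and 21 fell, and the median log2 fold change was -0.04 for the neighbours and 0.23 for their LINC rows. Across the 65 pairs, which share libraries and of which 13 overlap or nearly touch, Pearson's r was 0.50 and Spearman's rho 0.33, and r was 0.30 without LINC00890. These are descriptions across genes, which are not independent replicates.

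In 6 pairs the 2 genes differed by at least 1 on the log2 scale, in each with the LINC row higher. LINC00894 was at 1.14 and EOLA2, listed in the table under the older name CXorf40B, at -0.06 (adjusted p = 0.419). LINC00896 was at 1.45 and RTN4R, which encodes the Nogo receptor on neurons, at 0.38, where both passed. LINC00595 and RPS24, a ribosomal protein gene, were at 1.50 and 0.33, and LINC00890 and DCX at 2.96 and 1.43. The other 2 pairs moved in opposite directions. LINC00967 was at 0.49 while CRH, the gene of corticotropin-releasing hormone, fell by 0.94 (adjusted p = 1.51e-06). The LINC00967 call (adjusted p = 0.0309) was lost without control replicate 2 or 3, without ELF4 siRNA replicate 3, without the trend and in DESeq2 (adjusted p = 0.0535 to 0.143). LINC00638, now VESTAR, was at 0.39 and did not pass (adjusted p = 0.129), but passed without ELF4 siRNA replicate 2 (adjusted p = 0.0285) and with a replicate block (adjusted p = 0.0385), while ZBTB42 fell by 0.99.

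**Figure D5:**
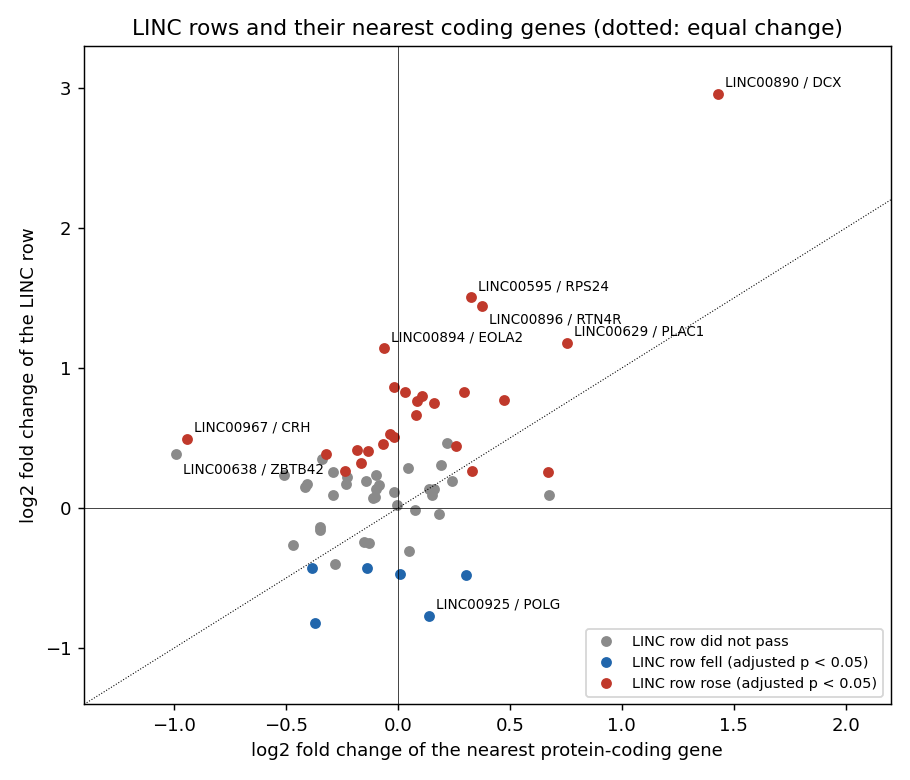
Log2 fold change of the nearest protein-coding gene (x axis) against that of the LINC row (y axis) for 65 pairs, coloured by the call of the LINC row. The dotted line marks equal change, and the 6 pairs at least 1 apart, from LINC00890 with DCX to LINC00896 with RTN4R, all lie above it.

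ELF4 belongs to the ETS family, whose members bind DNA around a GGAA core. The RefSeq table (GRCh38.p14) gave promoters from 250 bases before to 50 bases after the start for 73 of the 98 rows. The letters CCGGAAG, searched on both strands, occurred in 12 of these 73 promoters (16.4%) and in 10.7% of 27305 promoters. They occurred in 6 of 25 promoters of rows that rose, 1 of 8 that fell and 5 of 40 that did not pass. The E-box CACGTG, a motif of MYC and MAX that does not overlap in letters with the first, occurred in 7 of 73 promoters (9.59%), against 7.43% of all. A match says only that these letters are present, and binding was not measured.

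The 6 windows below come from LINC rows that rose and hold CCGGAAG. They are shown on the gene's strand, 5′ to 3′, with the match in capitals, which reads CTTCCGG where the motif lies on the opposite strand.
LINC00662, chr19:27794028-27794058, minus strand: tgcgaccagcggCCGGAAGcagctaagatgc
LINC01003, chr7:152464029-152464059, plus strand: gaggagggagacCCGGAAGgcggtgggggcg
LINC00476 (ERCC6L2-AS1), chr9:95875980-95876010, minus strand: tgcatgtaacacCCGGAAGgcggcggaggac
LINC00205, chr21:45287879-45287909, plus strand: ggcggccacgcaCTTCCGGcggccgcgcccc
LINC00938, chr12:45727949-45727979, minus strand: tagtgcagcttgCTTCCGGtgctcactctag
LINC00667, chr18:5238058-5238088, plus strand: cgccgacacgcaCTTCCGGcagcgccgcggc

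The log2 fold changes of these 6 rows were 0.77 for LINC01003, 0.51 for LINC00662, 0.46 for LINC00476, 0.44 for LINC00205, 0.27 for LINC00938 and 0.25 for LINC00667. LINC01003 had 185, 114 and 191 in control and 261, 258 and 300 in ELF4 siRNA libraries. In all 6 the ELF4 siRNA libraries lay above the controls. Of the 7 largest rises 4 had a promoter in the RefSeq set (LINC00595, LINC00277, LINC00920 and LINC00894), and the letters are in none of these. In addition, LINC00265, LINC00493, LINC00665, LINC00909 and LINC00984, which also hold it, did not pass. LINC01003, LINC00476, LINC00205, LINC00938, LINC00667, LINC00265 and LINC00909 are named for the motif, after their values were seen.

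Other classes of noncoding names were counted in the same fit. Of 264 tested antisense names (ending in AS and a number), 67 rose (25.4%) and 21 fell (7.95%), and the median change was 0.15 on the log2 scale. Over all tested rows 20.7% rose and 24.4% fell. No strand setting is stated for the counting, so an antisense gene and its partner cannot be told apart in these rows. Of 13 small nucleolar RNA host genes (SNHG) 4 rose (30.8%) and 0 fell, and of 10 tested rows named as microRNA host genes 4 rose and 1 fell. Among the LINC rows with a mean under 20, 42 of 119 could be tested, of which 4 rose and 0 fell, from a median level of 12.9.

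The nuclear exosome and its adapters degrade many unstable noncoding RNAs. Of 20 tested genes of a list for nuclear RNA decay 2 rose, 9 fell and 9 did not pass. The 9 falls are 45% of them, where 24.4% of all tested rows fell, and 34.5% of rows with a mean of at least 200. EXOSC9, a core subunit, had 1830, 1931 and 1976 in control and 1323, 1286 and 1203 in ELF4 siRNA libraries, groups far apart (log2 fold change -0.59, adjusted p = 5.99e-07). EXOSC8, another core subunit, had a log2 fold change of -0.40 (adjusted p = 4.34e-06). The 2 that rose were EXOSC6, also of the core, by 0.17 (adjusted p = 0.0170), and NCBP1, of the cap-binding complex, by 0.11 (adjusted p = 0.0279), both named after their values were seen. The part of these genes in the LINC values was not tested.

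A further 22 rows join a LINC name with another gene name, and 16 of them had a mean of at least 20. They were kept out of the set. Of the 16, 5 rose (31.25%) and 2 fell (12.5%), against 20.7% and 24.4% of all tested rows. The row joining LINC00277 with RP11-809H16.5 had 41.5, 28.6 and 37.5 in control and 90.3, 84.2 and 76.6 in ELF4 siRNA libraries (log2 fold change 1.21, adjusted p = 2.13e-05), close to the 1.24 of LINC00277 alone. The row joining LINC00893 with IDS had 16.0, 25.1 and 22.7 in control and 44.1, 52.8 and 39.3 in ELF4 siRNA libraries, which did not overlap (log2 fold change 1.07, adjusted p = 0.000539). LINC00630 went differently in its 2 rows. Alone it was at 0.15 and did not pass (adjusted p = 0.281), and in the row joined with LL0XNC01-237H1.2 it fell by 0.49 (adjusted p = 0.0247). LINC00630 was chosen after its values were seen.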

How the data were processed

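The deposited table holds a signal per gene, a read count that the authors normalised. Divided by the value of a single read in each library, the deposited numbers gave whole reads for 100% of entries (within 0.001), so the values are reads over a size factor per library. The hg19 build and the tools DESeq2, featureCounts and TopHat are named, per the submitters' processing notes. For versions, annotation and strand setting, the sources used here give nothing. The depth was 23148635 to 38097986 reads per library.

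The groups were compared with limma on log2(value + 1) with a trend and no covariates. Rows reaching 10 in 3 or more libraries entered the test (20339 rows, Benjamini-Hochberg adjusted p threshold 0.05). Fold changes on this scale understate changes of low genes. The labels do not state that the libraries are separate cultures. P-values therefore set the group difference only against the spread among these libraries, moderated over all tested rows, and that spread may be technical. The members and lists were chosen with earlier results of these data known.

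Named members were the 12 largest rises and 12 largest falls among those called (8 fell), the 10 highest means, listed names, microRNA hosts on the same strand, genes now protein-coding, the 3 rows on either side of the minimum mean, and up to 6 rows at least 1 from their nearest coding gene. Others named were ELF4, neighbours, and up to 2 genes per list by adjusted p. Current names, neighbours, promoters and microRNAs came from RefSeq (GRCh38.p14) by symbol, and exon lengths and shared 31-mers from GENCODE 29. The files are on hg19, so coordinates belong to the RefSeq promoter windows alone. Alternatives were other pseudocounts, filters, scalings and minimum means, no trend, edgeR, DESeq2, a replicate block and leaving out each library. Some marker genes and promoter windows are not reported here. After seeing the data, counts without rows of shared sequence and without protein-coding names were added.

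The fit was tested on data simulated for this comparison of ELF4 siRNA with control siRNA, over 20062 genes. It recovered 63.0% of 92 genes changed by 0.5 and 82.5% of 103 changed by 1 (log2). The simulation gave every gene the same dispersion, left 19867 genes unchanged and drew genes of all levels. These rates therefore do not give the share of changes found among the LINC rows. Models ran in R 4.3.3 with DESeq2 1.42.0, edgeR 4.0.16 and limma 3.58.1, and other steps in Python 3.11.15 with matplotlib 3.10.9, pandas 2.3.3, scipy 1.17.1 and numpy 2.4.6.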

Additional observations from a re-analysis of the deposited data

How the results depend on the processing

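Across the 43 named LINC rows, 645 fold changes were recomputed under the alternatives. Of these 625 kept direction and side of the threshold, 14 no longer passed, 6 newly passed and 0 reversed. The count of 37 rises and 8 falls was 37 and 8 in edgeR, 31 and 6 in DESeq2, and 34 and 10 without the trend. It was 30 and 6 without the 15 rows that share at least 25% of their 31-mers with another gene, and 33 and 6 without the protein-coding names. Shared 31-mers were counted on either strand and for 90 of the 98 rows, so the remaining rows were kept unchecked. Leaving out each library in turn gave 33 to 39 rises and 7 to 9 falls. Requiring a log2 change of at least 1 left 7 rises and 0 falls among the 98 LINC rows. Among all 20339 tested rows it left 333 rises and 241 falls. The same replicate numbers correlated at 0.03 to 0.07, under the limit for pairing, though each library correlated best with its own number. The replicate block gave 40 rises and 9 falls. Rows with a mean under 50 rest on few reads, as low as 10 in a library, and small changes were not detectable there.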

Other observations

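Of the 8 LINC rows on the X chromosome, 7 rose and 0 fell. They are LINC00890, LINC00629, LINC00894, LINC00893, LINC00685, LINC00106 and LINC00632, with log2 fold changes from 0.72 for LINC00632 to 2.96 for LINC00890, and LINC00630 did not pass at 0.15. Of the 7, LINC00629, LINC00893 and LINC00106 had control means of 12.1, 15.1 and 15.6, so they reached the minimum mean of 20 through their ELF4 siRNA values, and their rises are partly set by the choice. Among the 546 other tested X genes matched by symbol, 135 rose (24.7%) and 125 fell (22.9%), and their median was 0.01 on the log2 scale. The grouping by chromosome was noticed after the values were seen and has no test. LINC00685 had 17.9, 30.8 and 27.6 in control and 39.7, 44.9 and 44.5 in ELF4 siRNA libraries (log2 fold change 0.77, adjusted p = 0.00620).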
